A study of Mus musculus with 18 samples.

Results

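Purkinje cells are the output neurons of the cerebellar cortex, and 6 genes that mark them were followed here across the brain regions of mice with and without Aldh5a1. The genes were Pcp2, Calb1, Car8, Ppp1r17, Slc1a6 and Pvalb. A probe set was taken as a member when its only annotated gene symbol was one of these. This gave 9 of the 12488 probe sets on the array, and 6 of the 8251 genes that some probe set named alone: 1 probe set each for Calb1, Car8 and Slc1a6, and a pair each for Pcp2, Ppp1r17 and Pvalb. All 9 lay among the 8382 probe sets kept for testing, but the Ppp1r17 probe set 98293_g_at passed the filter on dim probe sets through its cerebellar signal alone.

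Hippocampus, cerebellum and cortex of 6 mice were hybridised, 1 Affymetrix array per animal and region, which gave 18 arrays in 6 groups of 3. The mice numbered 3363, 3389 and 3403 were homozygous for loss of Aldh5a1 (Aldh5a1-/-, KO), and those numbered 3405, 3406 and 3396 were wild type (WT). Aldh5a1 encodes succinate semialdehyde dehydrogenase, a mitochondrial enzyme of GABA breakdown. Strain, age, sex, treatment and the form of the Aldh5a1 allele are not given in the sources used here.

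The source label named hippocampus for every sample, so the region came from the title and description, and each of the 18 arrays resembled those of its named region most. No probe set was assigned to Aldh5a1 (0 of 12488), so the genotype rests on the labels. Signal, the deposited scaled intensity, had a median of 53.5 to 64.8 per array. Values under a floor of 9.46 were raised to it before log2 was taken. The number of arrays limits the precision, at 3 per group.

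Purkinje cells receive excitation from granule cell parallel fibres and from climbing fibres, and inhibit the deep cerebellar nuclei through GABA. Their firing depends on tightly handled calcium and on glutamate uptake at their dendritic spines. The 6 genes reflect these tasks: Calb1 and Pvalb encode the calcium buffers calbindin and parvalbumin, Car8 a catalytically inactive carbonic anhydrase relative that binds the IP3 receptor, and Slc1a6 the glutamate transporter EAAT4. Ppp1r17 encodes G-substrate, a phosphatase inhibitor phosphorylated by cGMP-dependent protein kinase, and Pcp2 a modulator of G protein signalling. Calb1 and Pvalb also mark neurons outside the cerebellum. Calbindin is found in dentate granule cells and some interneurons, and parvalbumin in fast-spiking interneurons of hippocampus and cortex and in interneurons of the cerebellar molecular layer.

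Promoter sequences are shown for the members that moved together between regions, with 250 bases before and 50 bases after the annotated start, from RefSeq on GRCm38.p6. Windows were found for 3 of the 6 genes, and Calb1, Car8 and Ppp1r17 are named only. Where the table held several starts, 4 for Pcp2 and 2 for Pvalb, the most upstream was used. The Pcp2 window lies at chr8:3625498-3625797 on the minus strand, the Slc1a6 window at chr10:78780246-78780545 on the plus strand and the Pvalb window at chr15:78206351-78206650 on the minus strand. Each is written 5′ to 3′, and capitals mark matches to AGGTCA, a core sequence bound by nuclear receptors such as Rora, a receptor needed for Purkinje cell development.
Pcp2: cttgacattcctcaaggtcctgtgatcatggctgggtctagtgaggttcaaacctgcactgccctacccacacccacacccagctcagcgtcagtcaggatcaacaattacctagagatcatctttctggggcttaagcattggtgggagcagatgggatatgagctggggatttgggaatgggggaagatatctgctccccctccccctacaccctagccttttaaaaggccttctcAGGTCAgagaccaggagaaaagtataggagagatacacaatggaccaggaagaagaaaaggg
Slc1a6: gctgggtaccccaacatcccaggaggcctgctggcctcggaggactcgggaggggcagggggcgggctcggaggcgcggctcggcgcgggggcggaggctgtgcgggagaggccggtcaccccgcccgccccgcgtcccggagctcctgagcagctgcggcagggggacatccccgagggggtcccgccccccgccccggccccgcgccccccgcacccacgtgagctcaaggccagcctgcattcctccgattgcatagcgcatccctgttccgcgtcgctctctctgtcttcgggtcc
Pvalb: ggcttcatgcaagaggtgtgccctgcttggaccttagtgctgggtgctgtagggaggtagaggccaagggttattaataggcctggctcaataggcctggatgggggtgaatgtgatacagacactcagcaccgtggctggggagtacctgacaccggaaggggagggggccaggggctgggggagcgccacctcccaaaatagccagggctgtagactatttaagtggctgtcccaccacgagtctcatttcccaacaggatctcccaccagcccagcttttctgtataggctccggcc
AGGTCA was searched on both strands and occurred once in the Pcp2 window, starting 12 bases before the start. It had 0 matches in the Slc1a6 and Pvalb windows. Of 32851 RefSeq promoter windows of this length, 5340 (16.3%) held it. GC content was 51.0% for Pcp2, 58.3% for Pvalb and 75.7% for Slc1a6.

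All 9 probe sets were higher in cerebellum than in hippocampus and cortex, in both genotypes, and this was true in each of the 6 animals. Ppp1r17 98293_g_at had to differ, because it entered the test through cerebellum alone, and it is left out of the counts and medians that follow. It was picked out because its WT hippocampal arrays all lay under the floor. Whether the dimmer of the other members would have passed the filter on forebrain arrays alone was not checked. For the other 8 the median log2 difference in WT was 3.08 against hippocampus (range 2.07 to 6.38) and 2.94 against cortex (1.50 to 5.73). In KO it was 3.32 against hippocampus (2.08 to 6.61) and 3.49 against cortex (1.89 to 5.65). These 8 passed in limma's moderated test in each of the 4 comparisons (Benjamini-Hochberg adjusted p of at most 1.47e-06). The background among all 8382 probe sets was 13.9% called higher in WT cerebellum than in WT hippocampus and 17.8% against WT cortex. In KO it was 17.8% against hippocampus and 17.9% against cortex, and the medians over all probe sets lay between -0.07 and -0.05 in the 4 comparisons. The genes were known as Purkinje markers beforehand, so these counts describe them and do not single them out. The arrays measured whole tissue, in which fewer cells of a type and less RNA per cell cannot be told apart.

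The split of calls over all probe sets moved with the scaling of the arrays. Higher calls made up 47.9% of calls in WT cerebellum against hippocampus and 62.2% after median scaling, 43.6% and 63.8% against WT cortex, 46.8% and 60.2% in KO against hippocampus, and 48.5% and 57.7% in KO against cortex. Against WT cortex the median over all probe sets moved from -0.07 to 0.11 (log2) with that scaling. The member probe sets stayed higher in cerebellum under both. The cerebellar arrays lay wholly above the forebrain arrays for these 8 members in each of the 4 comparisons, as they did for 19.7% of all kept probe sets against WT hippocampus, 21% against WT cortex, 23.8% against KO hippocampus and 23.1% against KO cortex. Comparisons within a genotype share their cerebellar arrays.

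**Figure D1:**
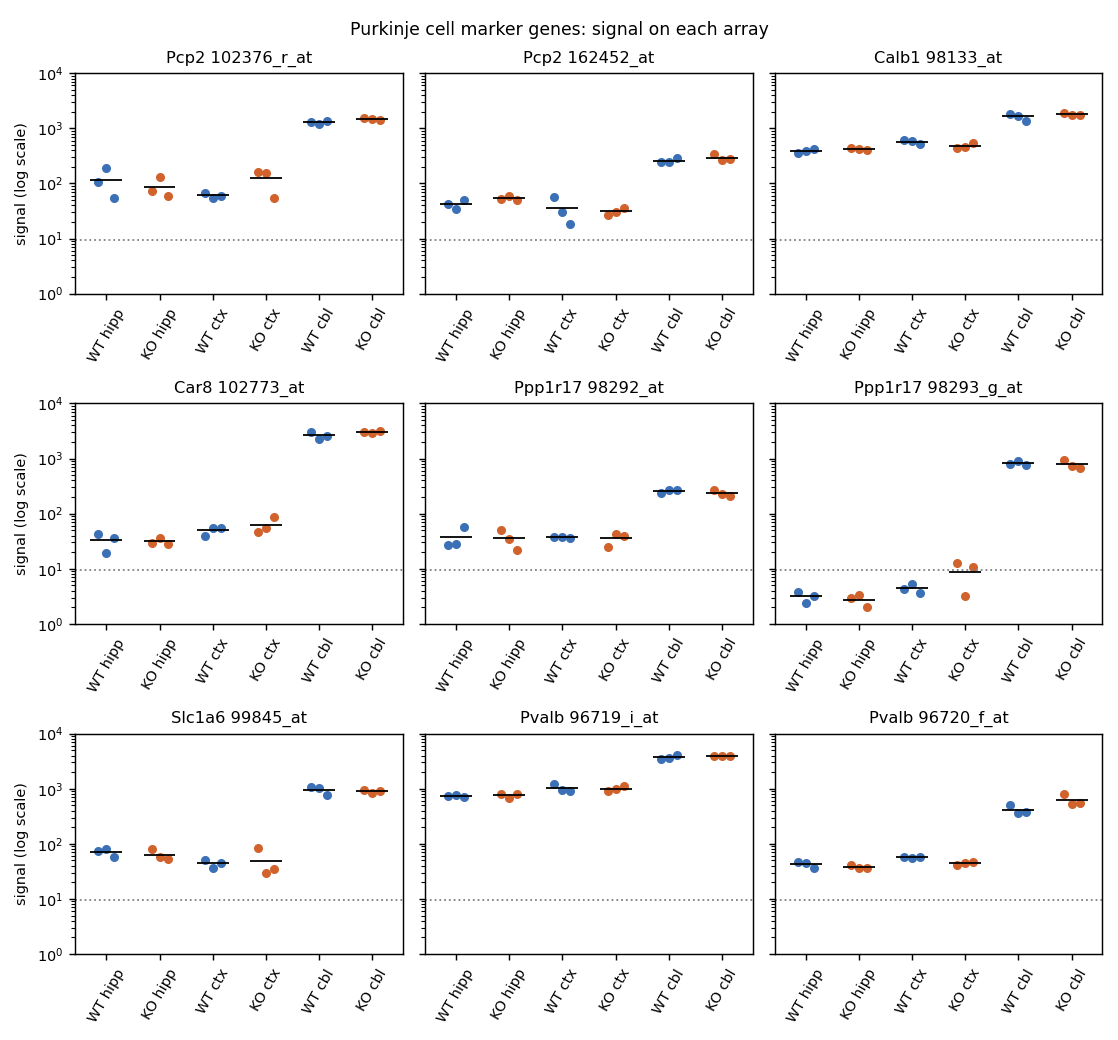
Signal of each of the 9 member probe sets on a log axis, with 1 point per array, 3 arrays in each of 6 groups of genotype and region, a bar at each group mean and a dotted line at the floor of 9.46. In every panel the cerebellar points of both genotypes lie above all points of hippocampus and cortex.

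Car8, which encodes the IP3 receptor partner, was among the members with the sharpest contrast between regions. Its signal was 3061, 2234 and 2562 in the cerebellum of WT animals 3405, 3406 and 3396, and 2989.8, 2949 and 3177 in that of KO animals 3363, 3389 and 3403. In hippocampus it was 43.1, 19.7 and 35.9 in WT and 29.6, 35.9 and 28.3 in KO. In cortex it was 39.2, 55.1 and 54.4 in WT and 46.8, 55.0 and 85.7 in KO. Every cerebellar array thus lay far above every forebrain array. Cerebellum exceeded hippocampus 83.1-fold in WT (log2 6.38 ± 0.248 SE) and 97.6-fold in KO (6.61), and exceeded cortex 53.0-fold and 50.3-fold. Within single animals the fold against hippocampus ran from 71.0 to 113.5 and that against cortex from 37.1 to 78.1.

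Ppp1r17, the gene of the phosphatase inhibitor G-substrate, gave different contrasts from its pair of probe sets. On 98293_g_at, signal in cerebellum was 808, 891 and 764 in WT and 943, 739 and 685 in KO. Hippocampal signal lay between 2.02 and 3.82 on all 6 arrays, below the floor, and cortical signal between 3.66 and 5.24 in WT. In KO cortex it was 12.7, 3.14 and 10.8, so only 1 of those 3 arrays lay under the floor. Against groups under the floor a fold is a lower limit: WT cerebellum was at least 86.6-fold higher than WT hippocampus and than WT cortex. KO cerebellum was at least 82.6-fold higher than KO hippocampus and 71.6-fold higher than KO cortex.

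On the probe set 98292_at, Ppp1r17 signal was 239, 263 and 269 in WT cerebellum and 271, 231 and 206 in KO cerebellum. Hippocampus gave 27.1, 27.6 and 56.2 in WT and 50.3, 34.8 and 21.9 in KO, and cortex 37.5, 37.3 and 36.6 in WT and 24.7, 42.3 and 39.5 in KO. The cerebellar arrays stood apart from all others here too, by 7.39-fold and 6.92-fold in WT and 6.96-fold and 6.80-fold in KO against hippocampus and cortex. Signals of different probe sets have no common scale, so only differences within each were compared.

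Slc1a6, the EAAT4 transporter gene, had signals of 1054, 1041 and 771 in WT cerebellum and 941, 829 and 914 in KO cerebellum. Its hippocampal signals were 72.7, 82.0 and 58.5 in WT and 80.9, 57.6 and 52.5 in KO. Cortex gave 51.7, 36.2 and 44.1 in WT and 82.6, 29.9 and 34.7 in KO. The lowest cerebellar array was thus well above the highest forebrain array. WT cerebellum exceeded hippocampus 13.4-fold (log2 3.75 ± 0.28 SE) and cortex 21.7-fold (4.44), and KO cerebellum exceeded them 14.3-fold and 20.3-fold.

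Pcp2 was read by 102376_r_at, where cerebellar signal was 1289.5, 1197 and 1364 in WT and 1564, 1503 and 1436 in KO. Forebrain signal on this probe set was uneven between animals: 106, 187 and 53.4 in WT hippocampus, 71.8, 131 and 58.6 in KO hippocampus, and 66.0, 55.3 and 60.4 in WT cortex. In KO cortex it was 161 and 157 in animals 3363 and 3389 but 54.4 in animal 3403. The cerebellar arrays remained above all of these. Cerebellum exceeded hippocampus 12.6-fold in WT (log2 3.65 ± 0.393 SE) and 18.3-fold in KO, and cortex 21.2-fold in WT and 13.5-fold in KO.

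The second Pcp2 probe set, 162452_at, gave 243, 243 and 289 in WT cerebellum and 336, 272 and 273 in KO cerebellum. Its forebrain signals lay between 18.4 and 58.7 on all 12 arrays. Cerebellum exceeded hippocampus 6.23-fold in WT and 5.43-fold in KO, and cortex 8.15-fold and 9.40-fold. Cerebellum was highest on both Pcp2 probe sets in both genotypes, while the folds differed. In KO, mean signal was higher in cortex than in hippocampus on 102376_r_at and lower on 162452_at.

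Calb1 and Pvalb 96719_i_at, read from the calcium buffer genes, had the smallest contrasts, and their forebrain signals lay well above the floor. Calb1 signal was 1839, 1706 and 1374 in WT cerebellum and 1915, 1724 and 1715 in KO cerebellum. Hippocampus gave 362, 385 and 418 in WT and 445, 427 and 396 in KO, and cortex 620.2, 581 and 527 in WT and 444, 461 and 541 in KO. Cerebellum exceeded hippocampus 4.20-fold in WT (log2 2.07 ± 0.113 SE) and 4.22-fold in KO, and cortex 2.83-fold and 3.71-fold. Per animal, the fold over cortex ran from 2.61 to 2.97 in WT and from 3.17 to 4.32 in KO. The cerebellar genotype difference of Calb1 minus its mean in both forebrain regions was 0.20 ± 0.139 SE on the log2 scale and did not pass (limma adjusted p = 0.72). That contrast averages cortex with hippocampus, and the difference between cerebellum and cortex alone was not tested.

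Pvalb was read by 96719_i_at and 96720_f_at, which the annotation ties to the same source sequence. In Affymetrix naming the suffix f marks probe sets that share probes with related sequences, and i and r mark those for which a rule of probe choice was relaxed. On 96719_i_at, signal was 3508, 3581 and 4081 in WT cerebellum and 3922, 3847 and 3879 in KO cerebellum. Forebrain signal was also high, with 737, 774 and 704 in WT hippocampus and 809, 689.6 and 791 in KO hippocampus, and with 1243, 944 and 896 in WT cortex and 917, 1008 and 1099 in KO cortex. Cerebellum exceeded hippocampus 5.04-fold in WT and 5.10-fold in KO, and cortex 3.65-fold and 3.86-fold.

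On 96720_f_at, Pvalb signal was 503, 367 and 379.6 in WT cerebellum and 815, 525 and 543 in KO cerebellum. Hippocampus gave 47.4, 45.7 and 36.5 in WT and 40.9, 36.4 and 37.2 in KO, and cortex 58.6, 55.3 and 58.1 in WT and 40.6, 44.4 and 46.9 in KO. Cerebellum exceeded hippocampus 9.61-fold in WT and 16.1-fold in KO, and cortex 7.19-fold and 14.0-fold. Per animal, the fold over hippocampus was 8.04 to 10.6 in WT and 14.4 to 19.9 in KO. The 96720_f_at signals of every KO cerebellar array lay above those of every WT one, and in cortex the KO arrays lay below the WT ones.

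**Figure D2:**
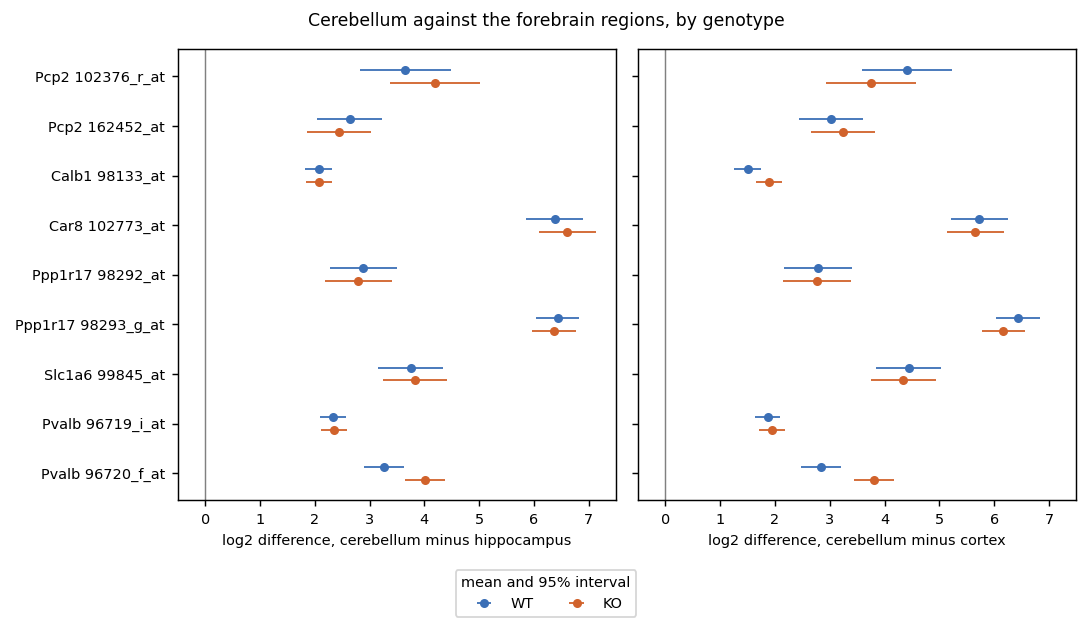
Log2 difference of cerebellum minus hippocampus and cerebellum minus cortex for each member probe set, in WT and in KO, as the mean with its 95% interval from limma. All intervals lie above 0, and Car8 and the Ppp1r17 probe set 98293_g_at lie farthest from it.

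The forebrain regions themselves were ordered differently by member. In WT, cortical arrays lay wholly above hippocampal arrays for Calb1 and both Pvalb probe sets, and wholly below them for Slc1a6. In KO, cortex lay wholly above hippocampus for Car8 and Pvalb 96719_i_at, and wholly below it for Pcp2 162452_at. Of all kept probe sets, 18.1% lay wholly higher and 15.9% wholly lower in cortex in WT, and 15.4% and 16.1% in KO. For the other probe sets, hippocampus and cortex overlapped. These orders were not tested.

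The genotypes were then compared in cerebellum, the question being whether loss of Aldh5a1 came with a different level of Purkinje marker transcripts there. None of the 9 probe sets passed (0 of 9; limma adjusted p between 0.188 and 0.931), and 1 had an unadjusted p under 0.05. Their log2 differences, KO minus WT, had a median of 0.13 and ran from -0.13 to 0.58, 6 above 0 and 3 below. Over all kept probe sets the median was 0.03, and 3 (0.0358%) were called, all lower in KO, against 1013 with an unadjusted p under 0.05. For 2 of the 9, Pcp2 102376_r_at and Pvalb 96720_f_at, the KO arrays lay wholly above the WT arrays, as they did for 7.53% of all kept probe sets.

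For the single-gene values, Car8 averaged 2619 ± 417 (SD, n = 3) in WT and 3038 ± 122 in KO cerebellum, a ratio of 1.17 with a 95% interval of the log2 difference from -0.29 to 0.75. Slc1a6 averaged 955 ± 159.8 and 895 ± 58.6, a ratio of 0.945 (-0.67 to 0.51). Calb1 averaged 1639.9 ± 239 and 1785 ± 113, and its interval, -0.11 to 0.37, was among the narrowest. Genotype groups overlapped for each of these genes. The intervals show which differences these arrays would leave possible: for Calb1 they reach a log2 change of 0.37 upward and 0.11 downward.

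Ppp1r17 averaged 257 ± 15.9 in WT and 236 ± 32.7 in KO on 98292_at (log2 -0.13, interval -0.75 to 0.49), and 821 ± 64.3 and 789 ± 136 on 98293_g_at (-0.07, -0.46 to 0.33). Both of its probe sets overlapped between genotypes. On 98293_g_at, both hippocampal groups and WT cortex were set wholly to the floor. They thus entered the shared spread with none of their own, and the interval of this probe set can be too narrow. Pcp2 averaged 1283 ± 83.6 in WT and 1501 ± 64.4 in KO on 102376_r_at (log2 0.23, interval -0.60 to 1.05). On 162452_at it averaged 258 ± 26.6 and 293 ± 36.8 (0.18, -0.40 to 0.77), where the groups overlapped. The pair of Pcp2 probe sets pointed the same way, and neither passed. The uneven forebrain signal of 102376_r_at enters the shared spread behind its interval. With the cerebellum's own 6 arrays alone its limma adjusted p was 0.509.

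The Pvalb probe sets gave differences of unlike size. On 96720_f_at it averaged 417 ± 75.1 in WT and 627 ± 162 in KO, a ratio of 1.49 (log2 0.58 ± 0.174 SE, interval 0.21 to 0.94, unadjusted p = 0.0038, limma adjusted p = 0.188). On 96719_i_at it averaged 3724 ± 312 and 3883 ± 38.1, a ratio of 1.05 (interval -0.17 to 0.30). The ratio of the first signal to the second within each cerebellar array was 0.208, 0.136 and 0.140 in KO and 0.143, 0.102 and 0.0930 in WT, so the genotypes overlapped, with KO animal 3363 highest. Without animal 3363 the 96720_f_at difference was 0.37 (adjusted p = 0.485), and without WT animal 3405 it was 0.72 (adjusted p = 0.0764). Over all alternatives its adjusted p ran from 0.0764 to 0.703.

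**Figure D3:**
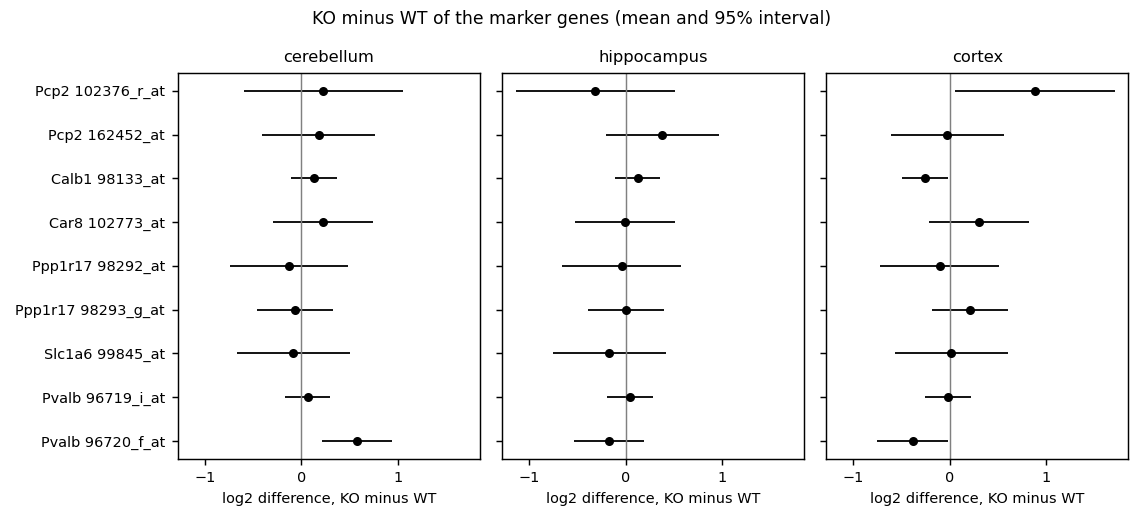
Log2 difference of KO minus WT for each member probe set in cerebellum, hippocampus and cortex, as the mean with its 95% interval from limma. All but 4 intervals cross 0: the exceptions are Pcp2 102376_r_at and Calb1 in cortex and those of Pvalb 96720_f_at, which lie above 0 in cerebellum (0.58) and below it in cortex (-0.39).

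In hippocampus none of the 9 member probe sets passed between genotypes (0 of 9), with 3 above 0, 5 below and 1 at 0, against 10 of all kept probe sets (0.119%) and 705 with an unadjusted p under 0.05. Those 10 calls were 3 higher and 7 lower, and median scaling gave 14 calls, 2 higher and 12 lower. Pcp2 162452_at lay wholly higher in KO hippocampus (log2 0.38, interval -0.21 to 0.97, adjusted p = 0.744), as 10.4% of all kept probe sets did.

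In cortex the member count was again 0 of 9, with 24 calls among all kept probe sets (0.286%) and 859 with an unadjusted p under 0.05. Unadjusted p was under 0.05 for 3 members. Pcp2 102376_r_at had a log2 difference of 0.88 ± 0.393 SE (interval 0.05 to 1.71, adjusted p = 0.458), which became 1.40 without KO animal 3403 (adjusted p = 0.174) and 0.61 without KO animal 3363. Of the 8 granule cell genes, 5 lay above 0 and 3 below in KO minus WT cortex, with 0 called and a median of 0.07, and their summed cortical signal was 820.8 to 847.8 in KO and 802.7 to 892.5 in WT. Their part in the Pcp2 value was not tested. Pcp2 162452_at had a difference of -0.02 in the same tissue.

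Calb1 averaged 576 ± 47.0 in WT cortex and 482 ± 51.9 in KO cortex (log2 -0.26, adjusted p = 0.441), with overlapping groups. Pvalb 96720_f_at was wholly lower in KO cortex (-0.39, adjusted p = 0.461), as 7.18% of all kept probe sets were. Pvalb 96719_i_at averaged 1028 ± 188 in WT and 1008 ± 91.3 in KO cortex, a log2 difference of -0.02.

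Whether the genotype difference in cerebellum departed from its mean in hippocampus and cortex was tested directly. None of the 9 member probe sets passed (0 of 9), against 3 of all kept probe sets (0.0358%) and 749 with an unadjusted p under 0.05. The member with the lowest p was Pvalb 96720_f_at, at 0.85 ± 0.21 SE on the log2 scale (unadjusted p = 0.000803, limma adjusted p = 0.189). The other 8 had unadjusted p above 0.05.

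The wider set of genes known from Purkinje cells was followed beside the members, with 1 probe set per gene. Of 24 such genes, 12 were on the array and 11 kept. In WT cerebellum 9 of the 11, all but Cacna1a and Ebf2, were called higher than in hippocampus (median log2 1.52), against 13.9% of all kept probe sets. Against cortex 8 were called higher (median 1.40), all but Atp2b2, Cacna1a and Ebf2, against 17.8%. The list was chosen with earlier results of these data known, so these counts only describe it. The largest excess over the mean of hippocampus and cortex was that of Rgs8, a regulator of G protein signalling (log2 2.78), of Inpp5a, an inositol trisphosphate phosphatase (2.69), and of Homer3, a postsynaptic scaffold (2.55). The smallest were Ebf2 (0.29), the calcium pump gene Atp2b2 (0.63) and the AMPA receptor partner Cacng2 (0.69).

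Between genotypes in cerebellum none of those 11 genes passed (0 of 11), with 3 above 0 and 8 below and a median log2 difference of -0.19, against 0.03 over all kept probe sets. The 3 of lowest p were Aldoc, the glycolytic enzyme also known as zebrin II (3933 ± 260 in WT and 3440 ± 270 in KO, log2 -0.19, adjusted p = 0.426), Cacng2 (354 ± 75.7 and 293 ± 38.5, -0.26, 0.514) and Inpp5a (1530 ± 328 and 1691 ± 106, 0.17, 0.643). Aldoc, the brightest of the 11 in cerebellum, also averaged 2215 in WT hippocampus and 2496 in WT cortex, and it weighs most in the list's sum. That summed cerebellar signal ran from 8226 to 9462 on the WT arrays and from 7998 to 8576 on the KO arrays. Summed in the same way, the 6 members ran from 10022.9 to 10991.5 in WT and from 11082.6 to 11604.7 in KO. Their KO sums thus lay wholly above their WT sums, as KO arrays did for 7.53% of single kept probe sets. The brightest probe sets weigh most in such a sum, and its difference was not tested.

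**Figure D4:**
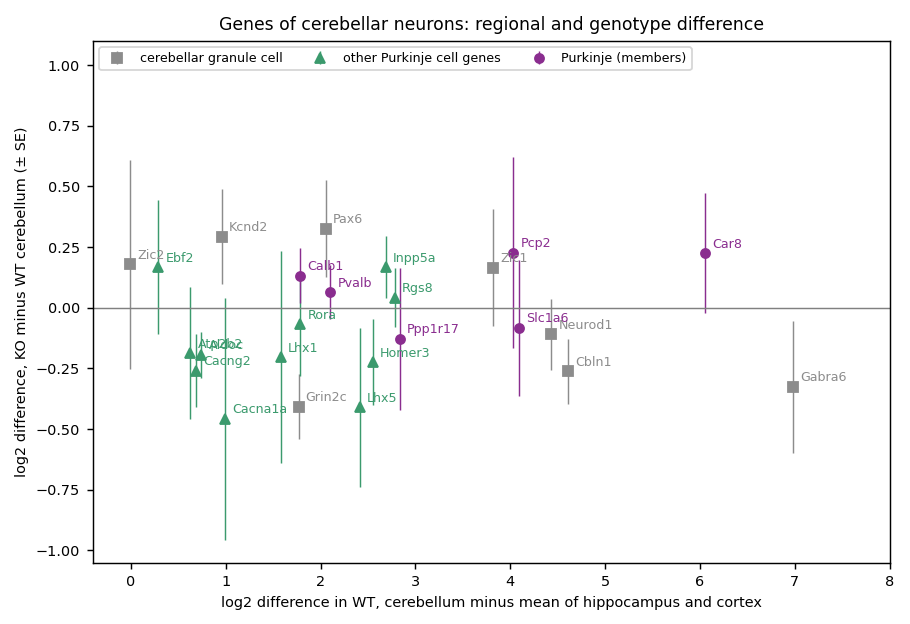
Excess of WT cerebellum over the mean of WT hippocampus and cortex (x axis, log2) against KO minus WT in cerebellum with its SE (y axis, log2), 1 probe set per gene, for the members, other Purkinje cell genes and granule cell genes. Car8 lies farthest to the right among the members, all 6 members lie right of 0, and no gene shown passed the adjusted threshold on the y axis.

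Other cell types share the cerebellar tissue, so their markers were read on the same arrays. Of 12 granule cell genes, 8 were measured and kept. In WT cerebellum 7 were called higher than in hippocampus and 7 than in cortex, against 13.9% and 17.8% of all kept probe sets. In KO minus WT cerebellum 4 lay above and 4 below 0, with 0 called and a median of 0.03. Their summed signal ran from 9568 to 10663 in WT and from 9394 to 9882 in KO. The lowest p was that of Grin2c, an NMDA receptor subunit gene, at -0.41 ± 0.133 SE (adjusted p = 0.226). Interneuron genes had 0 called of 10, a median of -0.09, and sums of 4450 to 5409 in WT and 4636 to 5370 in KO. Their lowest p belonged to Sst, the somatostatin gene, at -0.87 ± 0.24 SE (adjusted p = 0.156). Sst averaged 74.4 in WT cerebellum and 1316 in WT hippocampus. Of the 10, 6 were called lower and 1 higher in WT cerebellum than in WT hippocampus, as were 1271 and 1167 of 8382 kept probe sets. Gad1, Calb2 and Slc32a1 (1665, 1650 and 1406 in WT cerebellum) made up most of the sums. Purkinje cells use GABA too, so these sums do not isolate interneurons.

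Glial and vascular lists also had 0 called in cerebellum. Bergmann glia and astrocyte genes had a median of -0.19, with sums of 5674 to 6013 in WT and 4095 to 5939 in KO, and oligodendrocyte genes one of -0.10, with 7749 to 8897 and 7185 to 7891. Their genes of lowest p were S100b (-0.50, adjusted p = 0.27) and Mag, of the myelin membrane (-0.37, adjusted p = 0.482). Microglial genes had a median of 0.09 and endothelial genes one of 0.11, with summed signals of 740.4 to 987 and 691 to 737 in WT and 839 to 862 and 716 to 846 in KO. Csf1r (-0.29, adjusted p = 0.492) and Cdh5 (-0.54, adjusted p = 0.423) had the lowest p there. Choroid plexus genes had the widest spread, with sums of 51.3 to 1275 in WT and 338 to 1469 in KO, a median of 1.76 and all 3 genes above 0. Folr1, a folate receptor gene, had the lowest p (1.71 ± 0.59 SE, adjusted p = 0.252).

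Markers of neurons of the other regions were read in cerebellum as well. Of the cortical glutamatergic list the 4 kept genes, Tbr1, Neurod6, Nrgn and Camk2a, all had cerebellar means under the floor, with sums of 17.4 to 22.9 in WT and 14.6 to 34.2 in KO. Neurod6 had the lowest p (0.16, adjusted p = 0.79). The dentate and hippocampal list, with 0 called of 5, had sums of 1002 to 1250 in WT and 801 to 1041 in KO, and a median difference of -0.02, with Spock1, a proteoglycan gene, of lowest p (-0.32, adjusted p = 0.418). Of those 5, 2 were called lower and 1, Tdo2, higher in WT cerebellum than in WT hippocampus, as were 1271 and 1167 of 8382 kept probe sets. Spock1, the brightest there, averaged 757 in WT cerebellum, 773 in WT hippocampus and 695 in WT cortex. This list thus does not mark neurons of the other regions alone. The part of any of these lists in the member values was not tested.

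The ratio of 3′ to 5′ signal of Gapdh in cerebellum was 0.795 to 0.844 in KO and 0.788 to 0.801 in WT. That of actin was 1.34 to 1.39 and 1.18 to 1.37, so both overlapped. In hippocampus both overlapped too. In cortex the Gapdh ratio was 0.797 to 0.812 in KO and 0.885 to 0.924 in WT, which did not overlap. The actin ratio in cortex, 1.64 to 1.88 in KO and 1.69 to 1.93 in WT, lay above that in cerebellum. The part of these ratios in the member values was not tested.

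Members followed one another closely from array to array, as the regions set them apart. With 1 probe set per gene, that of the highest mean log2 signal over all arrays (98292_at for Ppp1r17), Pearson r between members was 0.906 to 0.985 over the 18 arrays, while the r of their deviations from group means ran from -0.562 to 0.45. These arrays share region and animal, and the values describe them only. The genes whose log2 signal was most like a member's were, for Car8, Cbln1, Rgs8 and Ccdc28b (r = 0.989 each). For Pcp2 102376_r_at they were Cox6b2 (0.97), En2 (0.964) and Inpp5a (0.963), and for Calb1, Washc2 (0.983), Ank1 (0.983) and Ilvbl (0.98). For Ppp1r17 98292_at they were Rnf19b (0.976), Mpp3 (0.975) and Gabra6 (0.971). Slc1a6 was most like Mindy1 (0.983), Atp2a3 (0.982) and Dao (0.982), and Pvalb 96719_i_at like Hpcal1 (0.986), Ank1 (0.986) and Cbln1 (0.982).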

How the data were processed

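Total RNA of 3 brain regions of 6 mice was measured on 18 arrays. The authors deposited linear intensity for each probe set. Its 2% trimmed mean was 150.07 to 150.08 on every array, so a common scaling had been applied. The software used is not given in these sources. Replicates are separate animals, per the labels' animal numbers.

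The table held 12488 probe sets, of which 66 were controls and not tested. A floor was set at the 20th percentile over the whole table (9.46) before log2 was taken. Probe sets above their array's 40th percentile on at least 3 arrays were kept (8382). Symbols came from the platform annotation, with 1 symbol for 10833 probe sets, several for 396 and none for 1193. limma 3.58.1 (R 4.3.3) estimated 6 group means from the 18 arrays, leaving 12 residual degrees of freedom, with eBayes using a trend on intensity. Two-sided p were adjusted by Benjamini-Hochberg across the 8382 probe sets, with a threshold of 0.05. An exact permutation of 3 against 3 arrays cannot give a p under 0.1. The fit was tested on simulated data with independent arrays. For KO minus WT cerebellum it recovered 38% of 50 changed probe sets at a log2 change of 0.5. At a log2 change of 1 it recovered 66%, and at 2 it recovered 96%. Changes of log2 1 or less were thus often not called. The simulation held changes of log2 0.5, 1, 2 and 4 together, with 50 probe sets each. More true changes ease the adjusted threshold. The real comparison gave 3 calls, so these rates can overstate what it would recover. Figures were drawn with matplotlib 3.10.9 (Python 3.11.15).

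Every member was named. From the other Purkinje list, the 3 genes of lowest p and those with the 3 largest and 3 smallest regional differences were named, and from each other list the gene of lowest p. Folds between a group under the floor and another are lower limits. Likeness was Pearson r over 18 arrays, and the 3 highest genes were named. Members and lists were chosen with earlier results of these data known.

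Same-numbered arrays come from the same animal. Residual correlation within an animal had a median of 0.135 (-0.0836 to 0.195, 18 pairs), against -0.0159 between animals. Alternatives covered scaling, floor, filter, trend, the animal as a block, the region's own arrays and each animal left out.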

Additional observations from a re-analysis of the deposited data

Results flagged for a closer look

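Pvalb 96720_f_at had KO and WT arrays apart in opposite directions in 2 regions, though neither difference passed. Every KO array lay above every WT array in cerebellum (KO minus WT log2 0.58, limma adjusted p = 0.188), as for 7.53% of kept probe sets. Every KO array lay below every WT array in cortex (-0.39, limma adjusted p = 0.461), as for 7.18%. The contrast of the cerebellar difference with the mean of both forebrain regions was 0.85 on the log2 scale and did not pass (limma adjusted p = 0.189), and the difference between cerebellum and cortex alone was not tested.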

How the results depend on the processing

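The regional differences kept their sign and passed under every alternative run, for all 9 member probe sets (135 of 135 values in each regional comparison). The 135 include the values of Ppp1r17 98293_g_at, which had to differ and so add nothing to this count. Between genotypes 0 members passed under any alternative. In cerebellum 133 of 135 alternative member values kept the sign of their KO minus WT difference; the others were Ppp1r17 98293_g_at without animal 3403 (0.03) and Pvalb 96719_i_at after median scaling (-0.01). The WT cerebellum excess of Ppp1r17 98293_g_at over hippocampus moved with the floor, from 5.45 with 16 added in its place to 8.04 without a floor. Over all kept probe sets, counts between genotypes moved more. KO minus WT cerebellum gave 3 calls, and 15 with median scaling, 5 without the filter, 9 with the 60th percentile filter, 1 without the intensity trend, 0 with the region's own 6 arrays and 0 to 121 with an animal left out (0 without 3389 or 3406, 5 without 3363, 12 without 3396, 121 without 3405). Hippocampus gave 10 calls, 1 with its own 6 arrays and 3 to 22 with an animal left out (3 without 3405, 6 without 3406, 22 without 3396). Cortex gave 24, 3 with its own arrays and 6 to 32 with an animal left out (6 without 3405, 10 without 3403). The interaction gave 3, and 1 without the filter, 1 without the trend, 5 with a fixed replicate block and 0 to 30 with an animal left out (0 without 3389, 1 without 3406, 30 without 3405). WT cerebellum against hippocampus gave 1167 higher calls, and 751 to 1167 with an animal left out (751 without 3406). With the animal as a random replicate block, calls numbered 3 in cerebellum, 11 in hippocampus, 25 in cortex and 3 in the interaction, and 1245, 1579, 1566 and 1576 higher in the regional comparisons, against 1235, 1602, 1570 and 1572 with a fixed block. The block changed no member's call. Own-array fits and left-out animals leave fewer arrays, and with an animal left out the counts moved both down and up. The cause of these moves was not tested. Signal under the floor limits the smallest values, those of Ppp1r17 98293_g_at in forebrain.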
